A study of Arabidopsis thaliana with 12 samples.

Results

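The data compare *pifq* with wild-type (WT) seedlings of *Arabidopsis thaliana* at the end of the night in short days (SD). They come from 6 of the 12 arrays of the series, 3 of *pifq* SD and 3 of WT SD, and every probe set except the controls was kept, 38310 of 38408. *pifq* carries mutations in the 4 genes *PIF1*, *PIF3*, *PIF4* and *PIF5*, and the WT is Col-0. *pifq* SD and WT SD seedlings were 3 days old, had been kept without sucrose in days of 8 h white light, at 85 µmol of photons per square metre each second, and 16 h darkness, and were sampled whole at 24 h, before the lights came on. Seedlings of *pifq* LL and WT LL, 3 arrays each, had the same age, medium and hour of sampling, but after 2 days in SD they spent the last day in continuous white light (LL). The replicates are labelled as biological, each group is a single line, and the number of seedlings behind an array is not given in the sources used here.

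*PIF1*, *PIF3*, *PIF4* and *PIF5* encode phytochrome-interacting factors, basic helix-loop-helix (bHLH) proteins that bind G-box and related motifs and act as transcription activators or repressors. Light-activated phytochromes bring about their degradation, so that they build up through a long night. They are known to promote hypocotyl elongation and to hold back chlorophyll synthesis and chloroplast development in seedlings. Because a whole seedling was extracted, fewer cells of a type and less RNA per cell cannot be told apart in any of the values below.

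Transcript levels are given as deposited log2 signals of the AraGene 1.0 ST array. A difference is a log2 FC, *pifq* minus WT, with the SE of the limma fit to all 12 arrays (n = 3 arrays per group), so 1 log2 unit is a factor of 2. Calls required a change of 1.5 fold or more together with a p adjusted by Benjamini-Hochberg of less than 0.05, and "rose" and "fell" are used for called changes in *pifq* SD relative to WT SD. Signals of different genes come from different probes and were not compared with each other. Array medians lay between 4.998 and 5.120, and the median spread (SD) between the arrays of a group was 0.244 in *pifq* SD, 0.219 in WT SD, 0.230 in *pifq* LL and 0.176 in WT LL. Of the genes commonly used as references, *TIP41*, *SAND* and *GAPC2* were measured, with log2 FC of -0.01 to 0.06. Gene names were found for 17753 probe sets, 16714 of them in the platform annotation. The other 1039 are named only through the study's own table of genes that it called on these arrays. Of the platform-named probe sets 1.39% were called in the SD comparison, but 249 of the 1039 named through the study's table. Counts over lists of named genes below therefore say how many rest on that table, and these are no independent evidence of direction. Medians over the lists include these members and share this limit. A listed gene counts as measured below where it has a named probe set, and the others may be on the array without a name. Genes that the study did not call lack the names of its table, so the called share of a list can be too high.

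The transcripts of the mutated genes were low in *pifq*. *PIF3* (AT1G09530) had log2 signals of 3.86, 3.89 and 3.1 in *pifq* SD, against 7.64, 7.66 and 7.73 in WT SD. *PIF5* (AT3G59060) had 5.51, 6.56 and 5.65 in *pifq* SD, against 9.66, 9.45 and 9.83 in WT SD, and *PIF1* (AT2G20180) had 6.83, 6.60 and 6.80 in *pifq* SD, against 8.58, 8.07 and 8.40 in WT SD. Every *pifq* array lay below every WT array for these 3 genes, and the fold differences were 16.6 for *PIF3*, 13.4 for *PIF5* and 3.04 for *PIF1*. *PIF4* has no named probe set here. In LL, where no array is shared with the SD comparison, the same transcripts differed by log2 FC of -3.40 (*PIF3*), -3.39 (*PIF5*) and -2.02 (*PIF1*). The 3 calls were kept when only the 6 SD arrays were fitted (limma, adjusted p 0.0129 for *PIF3*, 0.0212 for *PIF5* and 0.0433 for *PIF1*).

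Across the array, 552 probe sets differed by this rule between *pifq* SD and WT SD, which is 1.44% of those tested. Of these, 229 were higher (0.598%) and 323 lower (0.843%). The falls were also larger: 173 of the 323 lower probe sets changed by at least 2 fold and 30 by at least 4 fold, against 54 and 4 of the 229 higher ones. The median log2 FC was 0.79 over the higher, -1.04 over the lower and 0.03 over all probe sets. The 3 *pifq* SD arrays lay apart from the 3 WT SD arrays in all 552 called probe sets, as they did in 15.6% of all probe sets tested. Where a called gene below is said not to overlap, this therefore adds no support to its call. One gene is named for 482 of the called probe sets, 249 of them through the study's table, and the 552 hold 530 distinct sets of values, since some probe sets are deposited with the same values. At an unadjusted p under 0.05, 4104 probe sets differed. The fit took its variance from all 12 arrays, and with the 6 SD arrays alone 67 were called, 10 higher and 57 lower, all 67 of them among the 552; the cause of this drop was not tested.

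**Figure D1:**
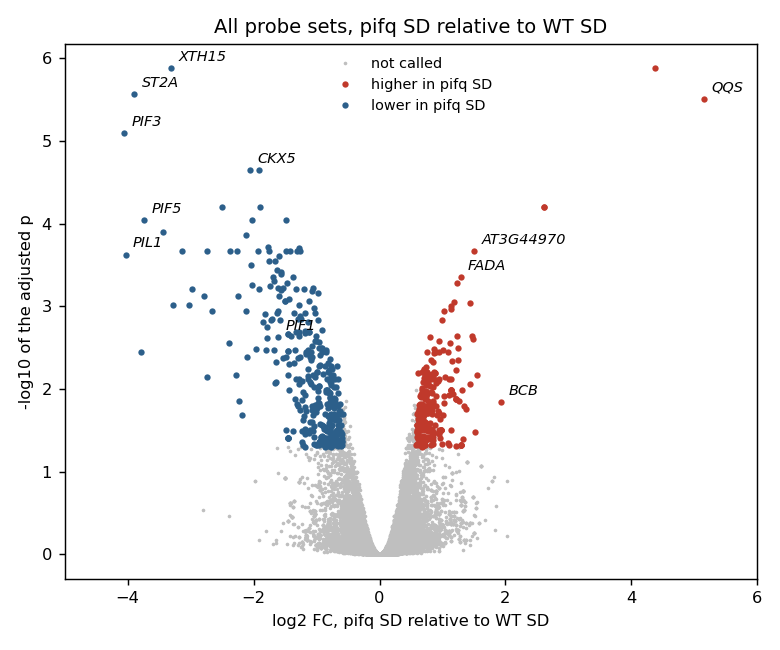
Every tested probe set, with the log2 FC of *pifq* SD relative to WT SD on the horizontal axis and -log10 of the limma adjusted p on the vertical axis; red points were called higher in *pifq* SD, blue points lower, grey points were not called. *QQS* stands far to the right at 5.16, with 3 points of unnamed probe sets between it and the other rises (2 of them coincide), and the falls reach -4.06 (*PIF3*).

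Of the 15 largest falls of named genes, 2 were of the PIF genes *PIF3* and *PIF5*. Among the others were the bHLH genes *PIL1*, *HFR1* and *BEE1*, the jasmonate gene *ST2A*, 5 auxin-related genes (*SAUR24*, *SAUR21*, *SAUR19*, *SAUR20* and *IAA29*), *HB-2* and the cell wall gene *XTH15*. *PIL1* (AT2G46970), a bHLH protein related to the PIFs whose transcript is a classic marker of shade, had log2 signals of 4.64, 3.84 and 4.76 in *pifq* SD, against 8.92, 7.68 and 8.73 in WT SD. *HFR1* (AT1G02340), an atypical HLH protein that binds PIFs and keeps them from DNA, had 5.58, 5.07 and 5.97 in *pifq* SD, against 8.72, 7.87 and 8.38 in WT SD. Array 2 was the lowest of its group for both genes in both genotypes, and the groups did not overlap. The log2 FC were -4.03 ± 0.33 for *PIL1* (limma, adjusted p = 0.000236) and -2.78 ± 0.27 for *HFR1* (limma, adjusted p = 0.000747). Of 7 other PIF family and related bHLH genes listed, 6 had a named probe set (3 only through the study's table): *PIL1* and *HFR1* fell, *PIF7* and *PIF8* rose, and 2 were not called. *PIF7* (AT5G61270), which encodes a light-stable PIF that acts in shade, had 6.23, 5.80 and 6.0 in *pifq* SD, against 5.03, 5.27 and 4.72 in WT SD, a log2 FC of 1.00 ± 0.18. Leaving out any of 4 of the 12 arrays ended its call (limma, adjusted p 0.0775 to 0.0861), whereas that of *PIF8* (log2 FC 0.87 ± 0.12) was kept.

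Homeodomain-leucine zipper (HD-Zip) class II proteins are known for their part in shade responses. Of 9 shade-linked transcription regulators listed, 6 were measured (5 named only through the study's table), and 5 fell, all of them HD-Zip II genes. *HB-2* (AT4G16780) had log2 signals of 5.50, 4.33 and 5.59 in *pifq* SD, against 8.39, 7.90 and 8.09 in WT SD, and *HB4* (AT2G44910) had 4.40, 4.73 and 4.75 in *pifq* SD, against 6.86, 6.58 and 6.78 in WT SD. *HAT2*, *HAT3* and *HAT1* fell by 1.28, 0.78 and 0.59, but *HAT3* was no longer called when any of 5 arrays was left out (limma, adjusted p 0.0678 to 0.0999), nor *HAT1* when any of 11 was (0.0524 to 0.155). *BBX25* (AT2G31380), a B-box protein, rose by 0.75 ± 0.10. The list's median log2 FC was -1.03. As most of its members are named only through the study's table, the median of 0.03 over all probe sets is no like benchmark. With the 6 SD arrays alone, *HB4* was still called (limma, adjusted p = 0.0201) and *HB-2* was not (0.0612).

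**Figure D2:**
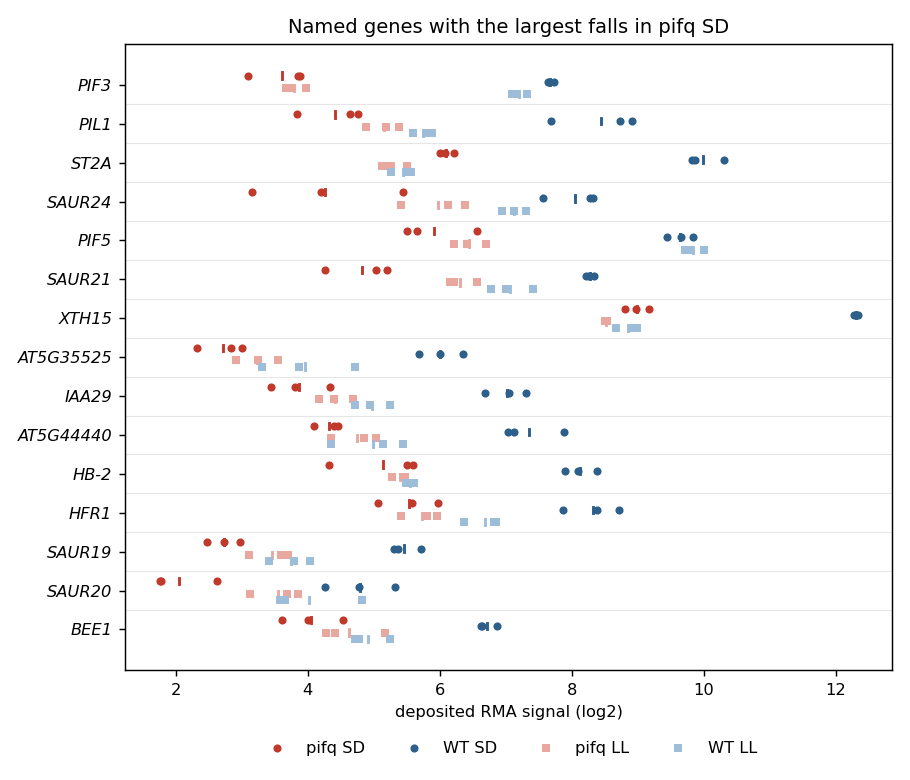
Deposited RMA log2 signals (horizontal axis) of the 15 named genes with the largest falls, from the largest at the top; each point is 1 array, circles are SD and squares LL, and short bars are group means. In every row the 3 *pifq* SD arrays lie left of the 3 WT SD arrays. For the genes other than *PIF3* and *PIF5* the LL groups lie much closer together than the SD groups. Their LL log2 FC were nevertheless all negative, from -0.15 (*ST2A*) to -1.15 (*SAUR24*), and none was called.

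In the auxin lists every called member was lower in *pifq* SD. SAUR genes encode small auxin-up RNA proteins that promote cell expansion. Of 22 SAUR genes listed, 10 were measured (9 only through the study's table), and 8 fell, none rose and 2 were not called, with a median log2 FC of -1.64. *SAUR21* (AT5G18030) had log2 signals of 5.20, 4.26 and 5.03 in *pifq* SD, against 8.33, 8.26 and 8.22 in WT SD, and *SAUR19* (AT5G18010) had 2.97, 2.48 and 2.73 in *pifq* SD, against 5.71, 5.37 and 5.31 in WT SD. The genotypes did not overlap in either gene, and the spread was wider in *pifq* SD for both. *SAUR24* had the largest fall of the family, -3.79 ± 0.49, with *pifq* SD arrays between 3.15 and 5.45. *SAUR19*, *SAUR20*, *SAUR21* and *SAUR24* belong to a subfamily of near-identical genes, so probes may share signal and their values are not independent. *SAUR20* fell by 2.74, *SAUR28* by 1.70 and *SAUR50* by 1.59.

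Aux/IAA proteins repress auxin responses and their genes are commonly induced by auxin. Of 16 listed, 8 were measured (5 only through the study's table), and 4 fell and none rose. Counted by symbol instead, 10 named IAA genes, 8 of them named by the platform, had 3 falls, no rise and a median log2 FC of -0.09. *IAA29* (AT4G32280), named by the platform, had log2 signals of 4.34, 3.45 and 3.81 in *pifq* SD, against 7.30, 6.69 and 7.05 in WT SD. *IAA19* (AT3G15540) had 3.41, 3.06 and 3.25 in *pifq* SD, against 5.33, 5.52 and 5.65 in WT SD. These were falls of 8.84 and 4.79 fold, with no overlap between the genotypes, and both calls were kept with the 6 SD arrays alone (limma, adjusted p 0.0261 for *IAA29* and 0.0181 for *IAA19*). *IAA2* fell by 1.21 and *IAA17* by 0.85. The call of *IAA2* was lost without *pifq* SD replicate 3 (limma, adjusted p = 0.0583) and that of *IAA17* without any of 10 of the 12 arrays (0.0501 to 0.127). *IAA30* and *IAA31* were not called, with log2 FC of 0.29 and 0.25.

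Of 18 genes of auxin synthesis, transport and conjugation, 7 were measured (3 only through the study's table), 3 fell and none rose, and the median log2 FC was -0.68. *AUX1* (AT2G38120), an auxin influx carrier, had log2 signals of 11.69, 11.59 and 11.63 in *pifq* SD, against 12.43, 12.23 and 12.38 in WT SD, a fall of 1.63 fold. *ABCB19*, an efflux carrier, fell by 0.68 and *GH3.3*, which conjugates auxin to amino acids, by 0.86. The calls of *ABCB19* and *GH3.3* were lost without any of 10 and 7 of the 12 arrays (limma, adjusted p up to 0.15 and 0.12). *YUC8*, an enzyme of auxin synthesis, had a log2 FC of -0.83 that was not called.

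Called genes in the lists of other hormones were lower in *pifq* SD as well. The called shares of these lists cannot be compared, because the part named through the study's table differs between them. Of 20 brassinosteroid genes listed, 8 were measured, all through the study's table, and 6 fell, with a median log2 FC of -1.07. *BEE1* (AT1G18400), a bHLH gene induced by brassinosteroids, had log2 signals of 4.54, 3.61 and 4.01 in *pifq* SD, against 6.87, 6.63 and 6.64 in WT SD. The HLH genes *PRE1* and *PRE6* fell by 1.67 and 1.62 and *IBH1*, whose product opposes the PRE proteins, by 1.1, so the called members hold both promoters and an inhibitor of cell elongation. *BEH4* and *BIM2*, relatives and partners of the brassinosteroid-activated transcription factors, fell by 1.04 and 0.98.

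Of 16 gibberellin genes, 8 were measured (6 only through the study's table), 3 fell and none rose. *GA20OX1* (AT4G25420), a biosynthetic enzyme, had log2 signals of 2.92, 3.58 and 2.78 in *pifq* SD, against 5.04, 4.81 and 4.77 in WT SD. *GAI* and *RGA* encode DELLA proteins, repressors of gibberellin responses that also bind PIFs, and fell by 1.18 and 0.77. The call of *RGA* did not hold without any of 10 of the 12 arrays (limma, adjusted p 0.0635 to 0.189). The gibberellin receptor genes *GID1A* and *GID1B* were not called, each with a log2 FC of 0.24.

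*ST2A* (AT5G07010) encodes a sulfotransferase that acts on hydroxyjasmonate. It had log2 signals of 6.0, 6.08 and 6.22 in *pifq* SD, against 10.30, 9.82 and 9.86 in WT SD, a fall of 14.8 fold and a gap between the genotypes far wider than their spread (log2 FC -3.89 ± 0.16, limma, adjusted p = 2.72e-06). The other jasmonate genes measured, *AOS* and *LOX2*, were not called (-0.25 and 0.34), and all 3 are named only through the study's table. Of 14 cytokinin genes, 4 were measured (2 only through the study's table), and only *CKX5* (AT1G75450), a cytokinin-degrading oxidase, was called. It had 5.79, 5.55 and 5.64 in *pifq* SD, against 7.80, 7.73 and 7.62 in WT SD, while the response regulator genes *ARR4*, *ARR15* and *ARR16* had log2 FC of 0.42 to 0.55. Of 22 ethylene genes, 8 were measured (6 only through the study's table) and 2 fell: *ARGOS*, which promotes organ growth, by 1.61 and *ACS5*, an enzyme of ethylene synthesis, by 1.08. Of 22 genes of abscisic acid and cold, 7 were measured (1 through the study's table), and *RD29B* alone was called, with a fall of 0.60 that was lost without any of 11 arrays (limma, adjusted p 0.0562 to 0.136).

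In the lists of genes that loosen or build the cell wall, every called member fell, whereas *XTH7* and *XTH32*, of the xyloglucan family but in no list, rose by 0.78 and 0.83. Their calls were lost without any of 4 and 11 arrays (limma, adjusted p 0.0548 to 0.135). Of 13 genes of xyloglucan remodelling, 8 were measured (3 only through the study's table), 5 fell and none rose, and every measured member had a negative log2 FC (median -1.05). Counted by symbol instead, the 14 named XTH genes had a median log2 FC of -0.28, with 4 falls and 2 rises. *XTH15* (AT4G14130), which encodes a xyloglucan endotransglucosylase/hydrolase, had log2 signals of 8.81, 9.17 and 8.97 in *pifq* SD, against 12.30, 12.33 and 12.27 in WT SD. The WT arrays were tight and more than 3 log2 units above the *pifq* arrays, and the fall was 9.95 fold (limma, adjusted p = 1.32e-06). *CSLC4*, which makes the xyloglucan backbone, fell by 1.35, *XTH8* by 1.26 and *XTH30* by 0.90. Of 10 expansin genes, 9 were measured (3 only through the study's table) and 5 fell, 3 of these named by the platform, with a median log2 FC of -0.66. *EXPA8* (AT2G40610) had 8.41, 7.82 and 7.99 in *pifq* SD, against 9.99, 10.07 and 9.97 in WT SD, with no overlap. *EXLA2* fell by 1.46, *EXPB1* by 0.94 and *EXPA3* by 0.66, and the calls of *EXPB1* and *EXPA3* were each lost without any of 4 arrays (limma, adjusted p 0.0544 to 0.0833). *EXPA1* and *EXPA4* were not called, with log2 FC of 0.36 and 0.07. *PRP2* (AT2G21140), a proline-rich wall protein, had 7.70, 7.79 and 7.78 in *pifq* SD, against 9.90, 9.58 and 9.48 in WT SD. The 15 largest falls also hold AT5G35525 (-3.28 ± 0.34) and AT5G44440 (-3.03 ± 0.31), which are in no list and are named by the platform.

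The cuticle is the lipid layer over the epidermis, made of the polyester cutin and of waxes, which derive from very-long-chain fatty acids. Of 28 genes of cuticle, wax and suberin, 14 were measured (13 only through the study's table), 8 fell and none rose, with a median log2 FC of -0.68. *FAR1* (AT5G22500), a fatty acyl reductase, had log2 signals of 8.41, 7.35 and 8.43 in *pifq* SD, against 10.74, 10.18 and 10.43 in WT SD. Its *pifq* values spread over about 1 log2 unit, and all lay below the WT values. *KCS1*, which elongates fatty acids, fell by 1.53, *CYP86A4*, a fatty acid hydroxylase of cutin synthesis, by 1.5 and *BDG1*, which is needed for a closed cuticle, by 1.43. *KCS1* and *CYP86A4* stayed called with the 6 SD arrays alone (limma, adjusted p 0.0442 and 0.0291), and *FAR1* and *BDG1* did not (0.0832 and 0.0591).

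Of the cytoskeleton genes listed, 7 were measured (4 only through the study's table), *TUB6* and *TUB8*, both of beta-tubulin, fell by 1.00 and 0.95, and all 7 had a negative log2 FC (median -0.75). *CYCD1;1* (AT1G70210), a D-type cyclin of the entry into the cell cycle, had log2 signals of 6.23, 6.02 and 6.24 in *pifq* SD, against 8.07, 8.11 and 8.02 in WT SD, a fall of 3.75 fold. The other 3 measured cell cycle genes were not called, all 4 being named only through the study's table, and their log2 FC lay between -0.39 and 0.62.

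**Figure D3:**
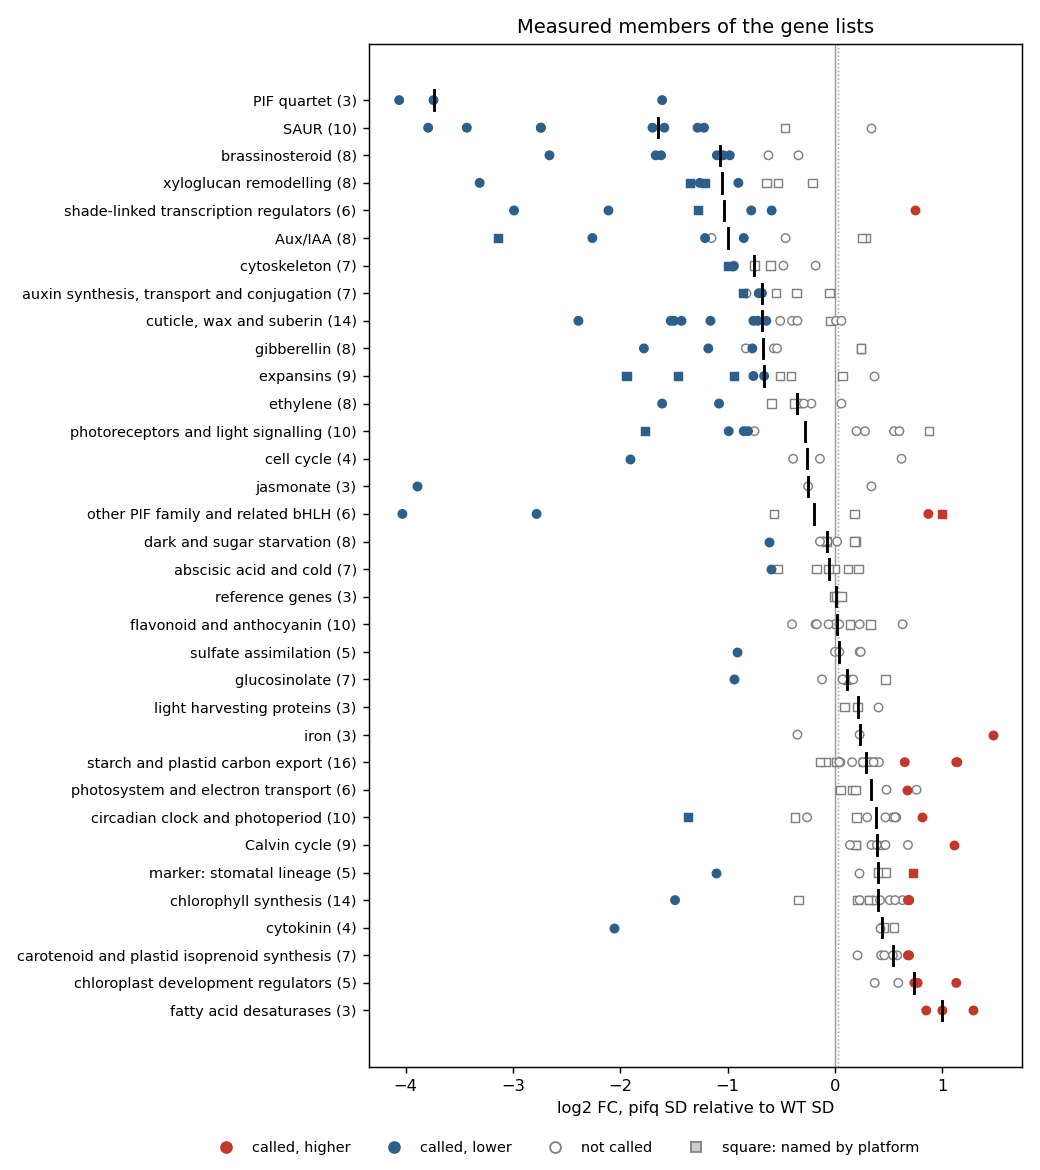
Log2 FC of *pifq* SD relative to WT SD (horizontal axis) for each measured member of the lists with at least 3 measured members, ordered by list median (black bars), with the number measured in brackets; filled symbols were called, squares are named by the platform annotation and circles only through the study's table, and the dotted line is the median of all probe sets, 0.03. Lists of growth-related genes lie at the top with medians down to -1.64 (SAUR) below the PIF quartet, and those of plastid genes towards the bottom with medians up to 1.00 (fatty acid desaturases). The lists of cytokinin (median 0.43), stomatal lineage (0.40) and clock and photoperiod genes (0.39) lie among those of plastid genes.

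Higher in *pifq* SD was, above all, *QQS* (AT3G30720), an orphan gene of Arabidopsis linked to starch content. It had log2 signals of 9.63, 9.32 and 9.42 in *pifq* SD, against 4.45, 4.01 and 4.43 in WT SD, and 9.17 ± 0.29 in *pifq* LL, against 4.49 ± 0.40 in WT LL (SD, n = 3 each). The rise was 35.7 fold in SD (log2 FC 5.16 ± 0.22, limma, adjusted p = 3.08e-06), and in LL the log2 FC was 4.68. The next largest rises belonged to probe sets without a gene name. Probe set 13545569 had 10.97, 11.03 and 11.18 in *pifq* SD, against 6.40, 7.03 and 6.60 in WT SD, and probe sets 13545433 and 13545441, deposited with the same values, had 7.56, 7.81 and 7.62 in *pifq* SD, against 4.73, 5.08 and 5.36 in WT SD. These also differed in LL, with log2 FC of 3.85 and 2.41.

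The other large rises were smaller than 4 fold. *BCB* (AT5G20230), a blue copper-binding protein, had log2 signals of 8.52, 9.80 and 9.51 in *pifq* SD, against 6.84, 7.65 and 7.54 in WT SD, a rise of 3.83 fold. Replicate 1 was the lowest in both genotypes, and the call was lost without *pifq* SD replicate 3 (limma, adjusted p = 0.0725) and without WT SD replicate 1 (0.0634). AT3G44970, a platform-named gene, had 8.89, 8.61 and 8.81 in *pifq* SD, against 7.21, 7.27 and 7.32 in WT SD, and *FRO6* (AT5G49730), a ferric reductase gene, had 6.69, 6.72 and 6.48 in *pifq* SD, against 5.46, 5.26 and 4.76 in WT SD. Neither overlapped between the genotypes, as held for every called probe set, and the calls of both genes were kept without any single array. AT2G32550 rose by 1.55, AT4G18740 by 1.52, AT1G29720 by 1.44 and AT1G24580 by 1.44. *GPX7*, a glutathione peroxidase, rose by 1.37, *MLO9*, of a family known for powdery mildew susceptibility, by 1.35, and the resistance gene *RPP4* by 1.33. The protein kinase gene *CIPK20* rose by 1.31, AT4G27300 by 1.25 and AT3G59080 by 1.25. *RPP4* and AT4G18740 lost their calls without any of 9 and 7 of the 12 arrays, and *GPX7* without any of 4 (limma, adjusted p 0.0549 to 0.167 over the 3 genes). The call of *MLO9* was lost without *pifq* SD replicate 3 or WT SD replicate 3 (adjusted p up to 0.0708) and that of *CIPK20* without *pifq* SD replicate 3 (0.0578). *RPP4* belongs to a cluster of related resistance genes, and *RPP5* of the same cluster rose by 0.89, a call lost without any of 6 arrays (limma, adjusted p 0.0506 to 0.112), so that shared probe signal cannot be told apart from separate changes.

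**Figure D4:**
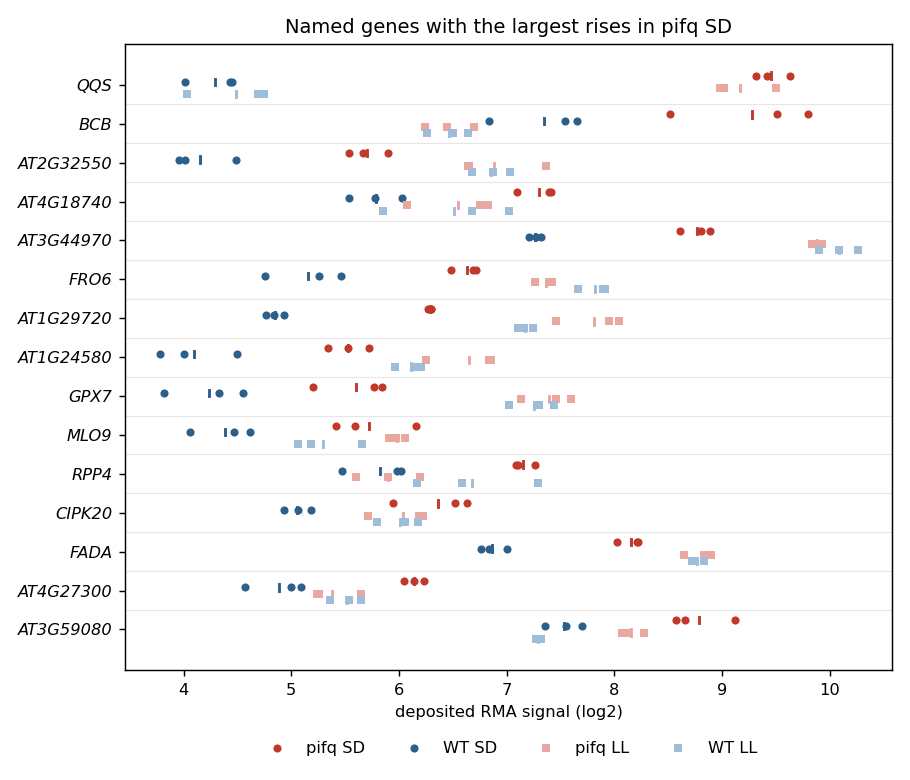
Deposited RMA log2 signals (horizontal axis) of the 15 named genes with the largest rises, from the largest at the top; each point is 1 array, circles are SD and squares LL, and short bars are group means. In every row the 3 *pifq* SD arrays lie right of the 3 WT SD arrays, and *QQS* is widely separated in LL as well, with a log2 FC of 4.68.

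In the lists of plastid genes, all calls except that of *PORA* were rises, and they were smaller than the largest falls above. Of 10 fatty acid desaturase genes listed, 3 were measured, all named only through the study's table. All 3 encode plastid desaturases and rose. *FADA* (AT4G27030) had log2 signals of 8.21, 8.03 and 8.22 in *pifq* SD, against 6.76, 6.84 and 7.0 in WT SD, and *FAD5* (AT3G15850) had 9.92, 10.01 and 10.09 in *pifq* SD, against 8.84, 9.15 and 9.02 in WT SD. *FAD8* rose by 0.85 ± 0.12. The genotypes did not overlap for any of the 3, and the calls held without any single array. *ADS4* (AT1G06350), a desaturase gene related to *FAD5* that is not in the list, had 3.12, 2.92 and 2.21 in *pifq* SD, against 4.54, 4.75 and 4.85 in WT SD, a fall of 3.9 fold.

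Of 8 regulators of chloroplast development, 5 were measured, all through the study's table, and 3 rose, with a median log2 FC of 0.74. *GLK2* (AT5G44190), a transcription factor that activates photosynthesis genes, had log2 signals of 10.96, 10.63 and 10.91 in *pifq* SD, against 10.10, 10.03 and 10.08 in WT SD. *CGA1*, a GATA factor that promotes chloroplast growth, rose by 1.13 and *SIG5*, a sigma factor of plastid transcription, by 0.74. The call of *CGA1* was lost without any of 7 arrays (limma, adjusted p 0.0517 to 0.13) and that of *SIG5* without *pifq* SD replicate 3 (0.0586) or WT SD replicate 3 (0.0533).

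Of 20 genes of chlorophyll synthesis, 14 were measured (9 only through the study's table), 3 rose, 1 fell and 10 were not called, and the median log2 FC was 0.40. *HEMA1* (AT1G58290), whose enzyme opens the pathway, had log2 signals of 10.26, 10.08 and 10.26 in *pifq* SD, against 9.48, 9.53 and 9.55 in WT SD. *CHLI1*, a subunit of magnesium chelatase, and *CHLG*, chlorophyll synthase, each rose by 0.69, with calls that were lost without any of 5 and 4 arrays (limma, adjusted p 0.0506 to 0.099). *PORA* (AT5G54190), the protochlorophyllide oxidoreductase of etiolated seedlings, went the other way with 4.11, 4.16 and 4.25 in *pifq* SD, against 6.08, 5.63 and 5.28 in WT SD. Its fall of 1.49 was the only one in the list, and the call was lost without any of 8 arrays (limma, adjusted p 0.0501 to 0.129). The related *PORB* and *PORC* were not called, with log2 FC of -0.34 and 0.23.

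Of 15 genes of carotenoid and plastid isoprenoid synthesis, 7 were measured, all through the study's table, and 2 rose: *PSY*, phytoene synthase, by 0.68 and *CYP97A3*, a carotene hydroxylase, by 0.69. All 7 had a positive log2 FC (median 0.54), and 6 were higher at an unadjusted p under 0.05. The call of *PSY* was lost without *pifq* SD replicate 3 or WT SD replicate 1 and that of *CYP97A3* without any of 4 arrays (limma, adjusted p 0.0547 to 0.113). In the Calvin cycle list 9 of 18 genes were measured (6 only through the study's table) and *RBCS1B* (AT5G38430), of the small subunit of Rubisco, was called. It had log2 signals of 11.14, 11.29 and 11.13 in *pifq* SD, against 9.80, 10.30 and 10.14 in WT SD, but the call was lost without WT SD replicate 1 (limma, adjusted p = 0.0541). *RBCS1B* has near-identical copies, between which array probes may not distinguish. *PGRL1A*, of cyclic electron flow, rose by 0.67 among 6 measured photosystem and electron transport genes (3 only through the study's table), a call lost without any of 4 arrays (0.0683 to 0.112), and none of the 3 measured light harvesting genes (1 through that table) was called, with log2 FC of 0.09 to 0.40.

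Of 32 starch genes listed, 16 were measured (12 only through the study's table), and 3 rose, all 3 of them named through that table. Of all probe sets named only through it, 249 of 1039 were called. *BAM3* (AT4G17090), which encodes a beta-amylase that degrades starch, had log2 signals of 8.30, 8.14 and 8.42 in *pifq* SD, against 7.20, 7.07 and 7.18 in WT SD. *PPT2* (AT3G01550), a phosphoenolpyruvate translocator, had 6.31, 6.30 and 5.74 in *pifq* SD, against 4.79, 5.21 and 4.96 in WT SD. In both the genotypes were apart, at 2.2 and 2.19 fold. *GBSS1* rose by 0.65, and this call was lost without any of 8 arrays (limma, adjusted p 0.0503 to 0.115). The other 13 members had log2 FC between -0.14 and 0.41.

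Transcripts of light receptors were among the falls. Of 19 photoreceptor and light signalling genes, 10 were measured (8 only through the study's table), 4 fell and none rose. By sign the list was split, with 5 members above and 5 below 0. At an unadjusted p under 0.05 (limma), 3 were higher and 5 lower, and the highest log2 FC, 0.88, was not called. *FHL* (AT5G02200), which carries phytochrome A into the nucleus and is named by the platform, had log2 signals of 4.99, 5.19 and 5.02 in *pifq* SD, against 6.67, 6.93 and 6.90 in WT SD. *PHYA* (AT1G09570), the far-red receptor, had 8.70, 9.10 and 8.92 in *pifq* SD, against 9.84, 9.95 and 9.88 in WT SD, and *PHYB* (AT2G18790), the red light receptor, had 7.48, 7.85 and 7.86 in *pifq* SD, against 8.48, 8.52 and 8.61 in WT SD. *PHOT1*, a blue light receptor, fell by 0.85. The WT arrays agreed closely in these genes, and the call of *PHYB* was lost without WT SD replicate 3 (limma, adjusted p = 0.0566). *COP1*, *SPA1*, *SPA3* and *SPA4*, of the complex that degrades light-signalling factors in darkness, were not called, with log2 FC of 0.20 to 0.60.

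Of 24 clock and photoperiod genes, 10 were measured (7 only through the study's table). *RVE1* (AT5G17300), a MYB-like factor of the morning, rose: it had log2 signals of 11.31, 11.32 and 11.37 in *pifq* SD, against 10.43, 10.61 and 10.54 in WT SD. *CDF5* (AT1G69570), a DOF repressor of flowering genes, fell: it had 5.82, 5.89 and 5.83 in *pifq* SD, against 7.28, 7.42 and 6.95 in WT SD. The core clock genes *CCA1*, *RVE8*, *PRR5*, *ELF4* and *GI* were not called, with log2 FC between -0.37 and 0.57. Over the list the median log2 FC was 0.39, with 7 members above and 3 below 0. At an unadjusted p under 0.05 (limma), 5 were higher and 2 lower.

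Several lists held few or no called members. None of 10 measured flavonoid and anthocyanin genes (8 only through the study's table) was called (limma, 1 at an unadjusted p under 0.05), and their median log2 FC was 0.02. *DRM1* alone of 8 dark and sugar starvation genes (5 through that table) fell, by 0.61, and its call was lost without any of 11 arrays (limma, adjusted p 0.057 to 0.162), while *ASN1* and *DIN2* had log2 FC of 0.02 and -0.07. *ESM1* fell by 0.94 among 7 glucosinolate genes (5 through the table), *SULTR3;1* by 0.91 among 5 sulfate genes and *NRT1.1* by 0.66 in the nitrogen list, where every measured gene is named through it. These 3 calls were lost without any of 9, 3 and 5 arrays (adjusted p 0.0602 to 0.141). The cellulose and aquaporin lists had 2 measured members each, 1 and 2 of them through the table, and no call, and no heat shock gene had a named probe set. Among the 5 measured stomatal markers (2 through the table), *SPCH*, a factor of the stomatal lineage, rose by 0.73 and *KAT1*, a guard cell channel, fell by 1.11, while *FAMA* and *MUTE* were not called (0.40 and 0.47). The call of *SPCH* was lost without any of 6 arrays (limma, adjusted p 0.0538 to 0.115). One seed maturation gene (*PAP85*, log2 FC 0.37) and 1 root hair gene (*EXPA7*, -0.14) were measured, neither called, so the makeup of the seedlings was hardly covered by these lists and its part in the results was not tested.

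In LL, few probe sets passed the test between the same genotypes. Only 7 were called in *pifq* LL relative to WT LL (limma, 0.0183% of those tested, with 2390 at an unadjusted p under 0.05): *PIF3*, *PIF5* and *PIF1* were lower, and *QQS* and the 3 unnamed probe sets given above were higher. Of the 552 probe sets called in SD, 413 had the same sign in LL (21757 of all 38310), and 22.5% differed at an unadjusted p under 0.05 in LL, against 6.24% of all probe sets. The median LL log2 FC was 0.09 over the probe sets higher in SD and -0.15 over those lower in SD.

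**Figure D5:**
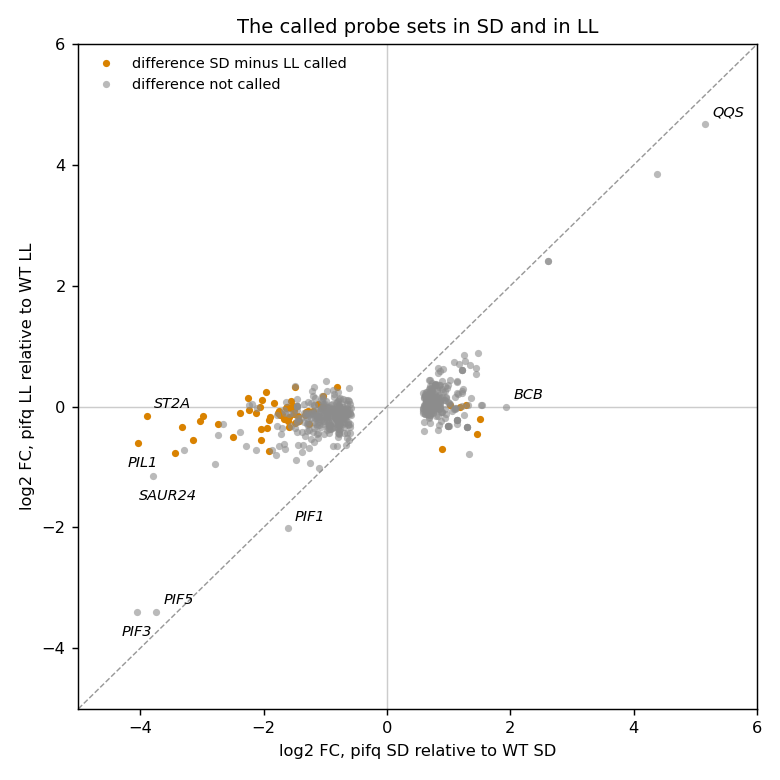
Log2 FC of the 552 probe sets called in SD, with *pifq* SD relative to WT SD on the horizontal axis and *pifq* LL relative to WT LL on the vertical axis; orange points were called for the difference of the effects, and the dashed line marks equal effects. *PIF3*, *PIF5*, *PIF1*, *QQS* and the unnamed probe sets lie near the line, and most other points lie near 0 in LL.

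The difference of the *pifq* effect between SD and LL was tested directly, as the SD log2 FC minus the LL log2 FC. It was called for 59 probe sets (0.154%), 53 with a lower and 6 with a higher value in SD, and all 59 were among the 552. The split between directions depended on the setting, with 22 lower and 13 higher under a replicate block, 133 and 75 with an intensity trend and 138 and 73 among the brighter 19155 probe sets. At an unadjusted p under 0.05, 2518 probe sets differed. *ST2A* fell by 3.89 in SD and had a log2 FC of -0.15 in LL, with 5.29 ± 0.19 in *pifq* LL and 5.44 ± 0.16 in WT LL (SD, n = 3 each). *XTH15* fell by 3.31 in SD, against a log2 FC of -0.33 in LL, and *CKX5* by 2.06, against 0.00. *AFP3* (AT3G29575), which encodes a protein that binds the abscisic acid factor ABI5, fell by 1.49 in SD and had 0.33 in LL. On the other side, AT3G44970 rose by 1.51 in SD, with a log2 FC of -0.21 in LL. These 5 genes and *PRP2* made up the 6 calls for the difference that remained whichever array was left out. Without 1 array the number of calls ranged from 6 to 50. *PIL1*, *HB-2*, *IAA29* and *IAA19* were called for the difference as well, and kept that call under 2, 1, 2 and 10 of the 12 omissions of 1 array. *HFR1* and *SAUR24* were not (limma, adjusted p = 0.156 and 0.287), with log2 FC of -0.96 and -1.15 in LL. For *PIF3*, *PIF5*, *PIF1* and *QQS* the difference was -0.65, -0.35, 0.41 and 0.48, and none was called (limma, adjusted p 0.713 to 0.988).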

How the data were processed

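Transcripts of 12 samples were measured on 1 AraGene 1.0 ST array each. The authors deposited log2 signals. The submitters' processing notes name RMA, which corrects background, normalizes by quantiles and summarizes probes, and its version is not given in the sources used here. RMA draws the arrays towards 1 distribution, so shifts common to most genes would be lost. The study's own calls came from Rosetta Resolver and were not used. No scan date or batch is labelled. The growth medium is named differently in the methods and the labels.

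The 38310 probe sets (98 controls left out) entered a fit in R 4.3.3 (limma 3.58.1) that gave each group a mean over its 3 of the 12 arrays, and the number of arrays limits the precision. p values measure the spread between the arrays labelled as biological replicates. The procedure was tested on simulated data. Names came from the platform annotation and, for 1039 probe sets, from the study's own table of called genes, of which 1999 rows are held here; its values served only to check the log scale. The brightest of several probe sets stood for a gene, and 19798 probe sets were left without a name, so listed genes not counted as measured may be among these. Promoter and protein sequences were not used here.

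Genes were named by rule: the PIF genes; the 15 largest rises and 15 largest falls of called, named genes with arrays apart; from each list, the called members with the lowest adjusted p, 4 at most; and, per direction, the 5 whose difference between SD and LL had the lowest adjusted p. Members named beside these, and the unnamed probe sets, were chosen after their values were seen. The members, lists and rules were chosen with earlier results of these data known. Alternatives were the 6 SD arrays alone, each array left out, other normalizations, variance models, filters and folds, and a replicate block. Deviations of same-numbered *pifq* SD and WT SD arrays correlated by 0.147, 0.349 and 0.081, the last under the limit of 0.1, so numbers were not used as pairs. Tables and figures were made in Python 3.11.15 (numpy 2.4.6, pandas 2.3.3, matplotlib 3.10.9).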

Additional observations from a re-analysis of the deposited data

Results flagged for a closer look

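For 29 of the named genes the difference of the *pifq* effect between SD and LL was called in limma, 24 with a lower and 5 with a higher value in SD, and the differences below are SD log2 FC minus LL log2 FC. Among regulators the difference was -3.42 for *PIL1*, -2.83 for *HB-2*, -2.00 for *HB4*, -1.66 for *FHL*, -1.62 for *PRE6*, -1.03 for *BEH4* and -1.82 for *AFP3*. Among auxin-related genes it was -2.67 for *SAUR21*, -2.45 for *SAUR19*, -1.58 for *SAUR28*, -2.60 for *IAA29* and -2.40 for *IAA19*. Among genes of other hormones and of growth it was -3.74 for *ST2A*, -2.06 for *CKX5*, -1.36 for *ARGOS* and -1.17 for *CYCD1;1*. In the wall and cuticle groups it was -2.98 for *XTH15*, -0.98 for *XTH8*, -1.58 for *EXPA8*, -1.72 for *PRP2*, -1.53 for *KCS1*, -1.38 for *CYP86A4* and -1.29 for *BDG1*, and for AT5G44440 it was -2.80. The 5 positive differences were 1.92 for *FRO6*, 1.71 for AT3G44970, 1.59 for *RPP5*, 1.26 for *FADA* and 1.18 for AT4G12830. *FRO6* and *RPP5* had negative log2 FC in LL (-0.46 and -0.71), beside rises of 1.47 and 0.89 in SD. Of the 59 probe sets called for the difference, 15 kept the call under none of the 12 omissions of 1 array, among them *BEH4*, *XTH8*, *CYP86A4* and AT5G44440. *HB-2*, *SAUR28*, *ARGOS*, *BDG1*, *FADA* and AT4G12830 kept it under only 1, and *PIL1*, *IAA29*, *CYCD1;1*, *EXPA8* and *RPP5* under 2.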

How the results depend on the processing

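The 552 calls in SD became 67 (10 higher, 57 lower) with the 6 SD arrays alone and 227 (54 higher, 173 lower) at 2 fold, the second by its stricter rule, and the cause of the first drop was not tested. Without 1 array they ranged from 274 to 504, with 77 to 216 higher and 183 to 288 lower, and 230 probe sets were called under every omission. Without *pifq* SD replicate 2 and WT SD replicate 2 together, chosen after seeing the data, 281 were called (99 higher, 182 lower), 8 for the difference between SD and LL. The replicate block gave 448 in SD, and for the difference 35 (13 higher, 22 lower), against 59 (6 higher, 53 lower). The calls for the difference ranged from 6 to 50 without 1 array, and were 208 (75 higher, 133 lower) with an intensity trend and 211 (73 higher, 138 lower) among the brighter 19155 probe sets; the calls in LL were 7 to 9 without 1 array, and 18 and 18 under these settings. The other normalizations, filters and variance models kept the count in SD within 1.5 times of 552, median centring with 183 higher and 367 lower. No named gene changed sign under any setting. As the *pifq* SD and WT SD arrays lay apart for every called gene, leaving out arrays could not change it, so this adds no support. Of the 100 named calls, 68 were kept under every omission of 1 array, and 32 with the 6 SD arrays alone. The number of 3 arrays per group limits all of these counts.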

Other observations

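Families were also counted by the letters that open the gene symbol, wherever at least 3 members were called, after the names had been seen, and those not described above follow. Arabinogalactan proteins are heavily glycosylated proteins of the cell surface and wall. Of 10 measured AGP genes 6 fell and none rose, among them *AGP7* (-2.10 ± 0.28), *AGP21* (-1.59 ± 0.13) and *AGP4* (-1.42 ± 0.11), and of 8 measured FLA genes, of the fasciclin-like branch, 6 fell and none rose, among them *FLA1* (-1.26) and *FLA9* (-1.20). *AGP4* had log2 signals of 9.49, 9.34 and 9.35 in *pifq* SD, against 10.84, 10.92 and 10.69 in WT SD. All 3 measured RTFL genes, of small ROTUNDIFOLIA-like peptides, fell, by 1.75 (*RTFL21*), 1.37 (*RTFL16*) and 1.11 (*RTFL12*), and the calls of *RTFL16* and *RTFL12* were lost without any of 9 and 6 arrays (limma, adjusted p 0.0504 to 0.136). All AGP, FLA and RTFL genes are named only through the study's table, which was made from these arrays. Of 14 XTH genes (5 through the table), 4 fell and 2 rose, with a median log2 FC of -0.28. EMB genes are so called for embryo defects of their mutants. Of 16 measured (1 named by the platform), 3 rose and none fell, with a median log2 FC of 0.47. All 3 are named only through the table, and 249 of the 1039 probe sets so named were called, so the count is no family result. The calls of *emb1138* (0.90), *emb2726* (0.71) and *EMB3129* (0.67) were lost without any of 2, 5 and 11 arrays (limma, adjusted p 0.0507 to 0.158). Of 5 ENODL genes, of early nodulin-like proteins and all named through the table, *ENODL8* fell by 2.03 and *ENODL18* by 1.14, and *ENODL2* rose by 0.62. Of 8 genes with MIR symbols, which are given to miRNA loci (1 named by the platform), *MIR396a* fell by 1.45, and *MIR850* and *MIR825* rose by 0.84 and 0.78, calls lost without any of 4 and 10 arrays (limma, adjusted p 0.0501 to 0.147). The homeobox genes *HB52* and *HB-3*, also named through the table, fell by 1.49 and 1.33. Of 24 measured genes whose symbols open with GH, all named by the platform, 3 fell and none rose. The median log2 FC over the 24 was -0.11. Those that fell were *GH3.3*, given above, and *GH9C2* (-1.36) and *GH9B8* (-1.24), both of glycosyl hydrolase family GH9.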
